A study of Capra hircus with 9 samples.

Results

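Gene expression in the uterus of Liaoning Cashmere goats, a breed kept for its fibre, was compared between day 16 and day 6, with 3 libraries of polyadenylated RNA for each day. Of the 25671 gene rows of the count table, 20222 are of type mRNA, and these rows were described; 14207 of them had enough counts in these 6 of the series' 9 libraries to be tested. Both groups carry the same labels apart from the day: the time point field reads peri-implantation for each, the tissue field gives uterus, and no treatment or genotype is named. The starting event of the day count is not labelled, and the design text words the days as ages. On the tissue the labels disagree, since the series title speaks of endometrial epithelium and the treatment protocol of testis. Whether replicates are separate animals is not stated, so a p-value here weighs a difference against the spread among libraries of a day, and that spread may be technical.

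As background, the ruminant uterus before implantation feeds a free-floating conceptus with glandular and luminal secretions, the histotroph, under the control of progesterone. The conceptus of sheep, goats and cattle elongates into a filament and secretes interferon tau, a type I interferon that signals through IFNAR1 and IFNAR2 to transcription factors that include STAT2 and IRF9. Known responses of the endometrium to these hormones include interferon-stimulated genes in the stroma and glands, transporters and galectins in the luminal epithelium, and changes in prostaglandin synthesis. The labels do not say whether these animals were pregnant.

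The 6 libraries held 8712751 to 10330038 counts and 18897 to 19243 detected rows each, and no pair of replicates was alike enough to be 1 library deposited under 2 labels, with at least 9.86 units of chi-square per degree of freedom between replicates. Principal components of log2 CPM (counts scaled to a common library size) were computed on only the rows that varied most across these 6 libraries. The first held 84.6% of the variance of those rows and separated the days. Rows that differ between the days are favoured by that choice, so the share does not describe all rows. Marker genes of the listed cell types were summed in CPM. Stromal fibroblast markers lay between 31287 and 34958 in the day 6 libraries and between 20069 and 24744 in those of day 16, and epithelial markers between 1421 and 1931 and between 1961 and 2111. The stromal sum is weighted to abundant collagens. In the test used below, 12 of the 15 stromal markers were not called, and the median log2 fold change of the 15 was -0.15. Smooth muscle markers were at 11347 in day 6 replicate 1, against 40462 and 32470 in the other day 6 libraries and 25507 to 26974 at day 16, so that library stood apart. Testis germ cell markers summed to 119 to 147 in these libraries, with 6 of the 21 rows at 0 counts in all 6 and 5 rows passing the low-count filter. Of 10 listed erythrocyte markers only 4 had a row, 1 of these at 0 counts in all 6 libraries, and their sum reached at most 0.705. None of these rows passed the low-count filter.

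**Figure D1:**
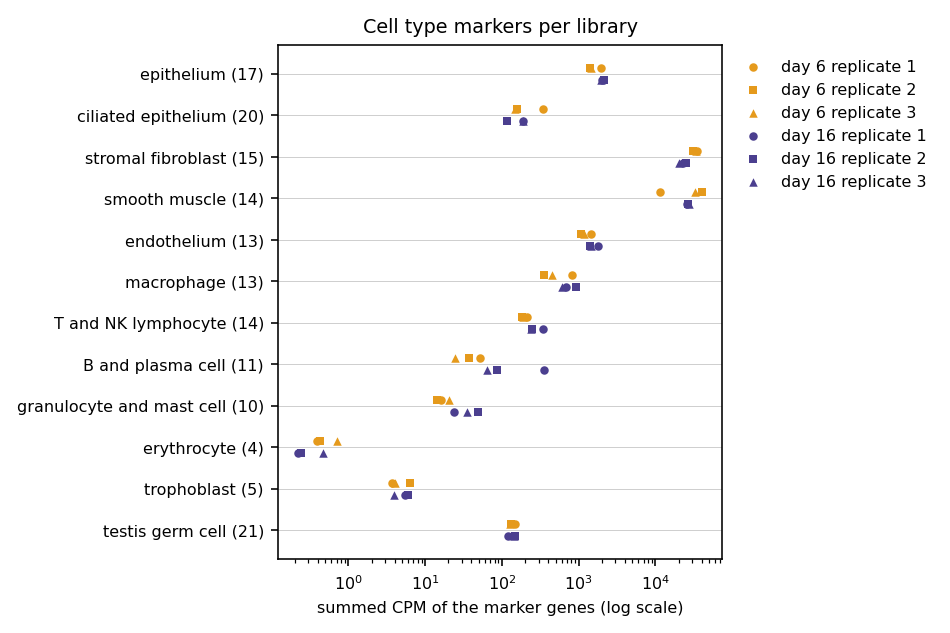
Summed CPM of the marker genes of 12 cell types in each library, on a log scale, with the number of gene rows per list in brackets; colours give the day and symbols the replicate. Smooth muscle markers are at 11347 in day 6 replicate 1, below the 5 other libraries, and B and plasma cell markers are at 355 in day 16 replicate 1, above the 5 others.

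The trophoblast, the outer layer of the conceptus, was looked for by marker symbol and by family name. Of 28 listed trophoblast markers 5 had a row, and these summed to 3.70 to 6.29 CPM at day 6 and 3.97 to 5.96 at day 16. All 7 rows of interferon tau held 0 counts in the 6 libraries. The 7 rows of trophoblast Kunitz domain proteins, which ruminant trophoblast is known to secrete, held 4, 0 and 1 counts in the day 6 libraries and 417, 223 and 14 at day 16. The 65 rows of pregnancy-associated glycoproteins, made by trophoblast binucleate cells, held 5 counts at day 6 and 21 at day 16, of which 20 were in replicate 3. Most of the Kunitz counts were those of LOC102177175, with 5 counts over the day 6 libraries and 597 over the day 16 libraries, adjusted p = 0.0256 (edgeR quasi-likelihood test, Benjamini-Hochberg adjustment). Its call was kept in 2 of 6 fits that left out 1 library, with an adjusted p up to 0.126, and its fold was 344 without day 6 replicate 1 in place of 123. A row named 3BHSD, after a steroid dehydrogenase, was chosen after its values were seen. It held 0 counts at day 6 and 104, 55.3 and 6.52 CPM at day 16 (adjusted p = 0.0729). Kunitz and 3BHSD values were thus both highest in day 16 replicate 1 and lowest in replicate 3; how far trophoblast RNA takes part in other differences between the days was not tested.

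Of the 14207 mRNA genes tested, 2958 (20.8%) were called at an adjusted p under 0.05: 1576 (11.1%) were higher and 1382 (9.73%) lower at day 16. The median log2 fold change of all genes tested was 0.01. In bulk tissue, fewer cells of a type and less RNA per cell cannot be told apart, and this holds for every difference below. Among called genes 1489 differed by at least 1 on the log2 scale, 646 by at least 2 and 81 by at least 5, and of these 81 genes 62 were higher and 19 lower. For 5723 genes (40.3%) the values of the days did not overlap, called or not. Counts of calls depended on the libraries in the fit. The number was 1691 without day 6 replicate 3 and 2038 without day 6 replicate 2, and 1491 genes were called in every fit that left out 1 library. A fit to all 9 libraries, in which day 19 shares the estimate of the spread, called 1355, of which 1331 were among the 2958. Where that fit ends the call of a gene named below, its adjusted p is given as the p with all 9 libraries.

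**Figure D2:**
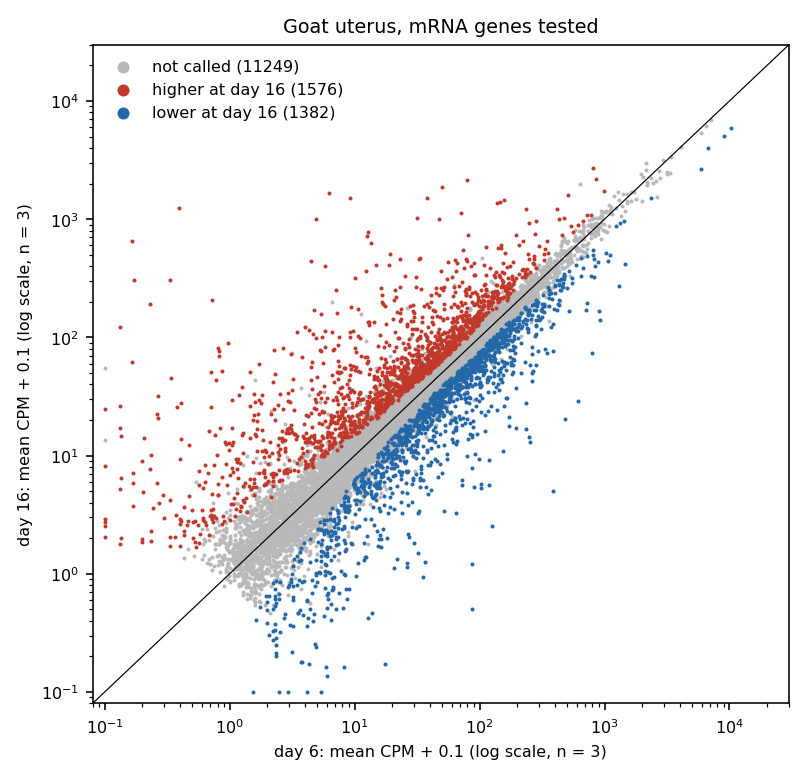
Mean CPM of each tested mRNA gene at day 6 (horizontal) and day 16 (vertical), with 0.1 added, on log scales; each point is a gene and the line marks equal values. Of 14207 genes, 1576 are called higher (red) and 1382 lower (blue), and of the 81 called genes that differ by at least 5 on the log2 scale 62 lie above the line.

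The leading genes were taken by size of change among calls that held, with a similar fold, without each library. They also had a gene symbol, at least 20 CPM on the higher day and at least 4 counts on the lower day. Values of the days that do not overlap were a condition as well. Some called genes that fail these conditions, as with fewer counts on the lower day, had larger changes. The 15 that rose fall into a few kinds. SLC7A9, the light chain of a transporter of cystine and dibasic amino acids, was at 0.195, 0 and 0.201 CPM in the day 6 libraries and at 182, 117 and 278 at day 16 (1299-fold, SE 0.59 on the log2 scale, adjusted p = 0.000149). Day 6 was thus near 0 in all 3 libraries, with 4 counts in total, so this fold is imprecise and its SE may be too small. SLC22A16, a carrier of carnitine and organic cations, stood at 0.292, 0.427 and 0.201 CPM and then at 35.9, 21 and 25.7 (86.7-fold, adjusted p = 7.57e-05). CXCL14, a chemokine of epithelia, stood at 6.13, 3.09 and 3.93 CPM and then at 478, 262 and 598 (101-fold, adjusted p = 0.000211). That the groups lay apart for these 3 genes follows from the way they were chosen.

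Interferon-stimulated genes were the most common kind, with ISG15, ZBP1, OAS2, MX1, IFI6, HERC6 and HSH2D, an adaptor protein with an SH2 domain, among the 15. ZBP1, a sensor of Z-form nucleic acids, was at 8.85, 3.95 and 4.33 CPM at day 6 and at 368, 603 and 229.8 at day 16 (69.7-fold, adjusted p = 0.000538). OAS2, which makes the activator of the antiviral ribonuclease L, was at 0.876, 0.32 and 1.11 CPM and then at 58.9, 60.3 and 36.3 (65.7-fold, adjusted p = 0.00011). IFI6, a small mitochondrial and reticulum membrane protein, was at 80.9, 22.8 and 45.6 CPM and then at 2053, 2286 and 1325 (37.9-fold, adjusted p = 0.00106). For ISG15 (935, 1593 and 501 CPM), MX1 (1320, 2270 and 927), ZBP1 and HERC6 (150.4, 273 and 88.3) the day 16 order was the same, with replicate 2 highest and replicate 3 lowest, while each of these values was above all of day 6. The remaining leaders were of other kinds. BCL2L15, a member of the BCL2 family of apoptosis regulators, was at 15.2, 8.43 and 14.4 CPM at day 6 and at 833, 935 and 559 at day 16 (61.1-fold, adjusted p = 7.87e-05). MS4A8, a membrane protein of the family of CD20, was at 1.85, 1.17 and 1.01 CPM and then at 31.8, 52.4 and 66.8 (37-fold, adjusted p = 0.000203). GRP, the gastrin-releasing peptide, was at 846, 2278 and 1868 CPM at day 16, against 3.42 to 9.71 at day 6. ITGB6, an integrin chain, and PTGS2, the inducible prostaglandin synthase, complete the 15.

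The 15 leading genes that fell included enzymes, transporters and signalling genes. PSAT1, the aminotransferase of serine synthesis, was at 468, 500.4 and 477 CPM at day 6 and at 26, 20.6 and 14 at day 16 (23.9-fold lower, SE 0.23 on the log2 scale, adjusted p = 6.44e-05). SLC13A5, a sodium-coupled citrate transporter, was at 589.9, 615 and 631 CPM and then at 30.6, 43.3 and 12.7 (21.3-fold lower, adjusted p = 0.00102). ATP6V1C2, a subunit of the proton pump of acidic vesicles, was at 129, 122 and 109 CPM and then at 6.95, 5.84 and 3.88 (21.7-fold lower, adjusted p = 5.49e-05). Day 6 replicates of these genes were close to each other and far above day 16. SLC28A3, a concentrating nucleoside transporter, had the smallest SE of the 15: 156, 152 and 155 CPM, then 10.3, 10.4 and 12.1 (14.1-fold lower, SE 0.12, adjusted p = 1.29e-05). MFSD2A, a carrier of lysophospholipids with long polyunsaturated chains, went from 119.5 ± 20.2 to 9.11 ± 0.635 CPM (SD, n = 3 each, adjusted p = 3.99e-05). FOXRED2, a flavoprotein of the endoplasmic reticulum, went from 233 ± 5.42 to 16.6 ± 3.2 CPM (adjusted p = 3.99e-05). NNAT, a membrane proteolipid whose gene is imprinted in mammals, was at 17.8, 34.1 and 43.4 CPM and then at 0.993, 1.79 and 1.42 (22.6-fold lower, adjusted p = 0.000499). ADCYAP1R1, the receptor of the peptide PACAP, was at 26.2, 55 and 73.3 CPM and then at 4.86, 1.43 and 3.59 (15.4-fold lower, adjusted p = 0.00296). For both, day 6 replicate 1 was the lowest of its day, still above every day 16 value. SCNN1A, the alpha chain of the epithelial sodium channel, CCNB1, IHH, WIF1, NME9 (21.8 ± 1.81 to 1.24 ± 0.312 CPM) and PLEKHD1 (103 ± 30.2 to 5.61 ± 1.5 CPM) were also among the 15.

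MRPS36, a small mitochondrial protein, led the fall at 33.1, 42.9 and 29.9 CPM against 1.43, 0.238 and 0.851 (40.7-fold lower, adjusted p = 0.000203). LOC102180566, a row described as a protein like it, was at 227, 301 and 230.3 CPM at day 6 and 13.4, 11.3 and 14.3 at day 16 (19.4-fold lower, adjusted p = 3.99e-05). Reads may be split between these rows, so the value of each alone is uncertain, although both fell.

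**Figure D3:**
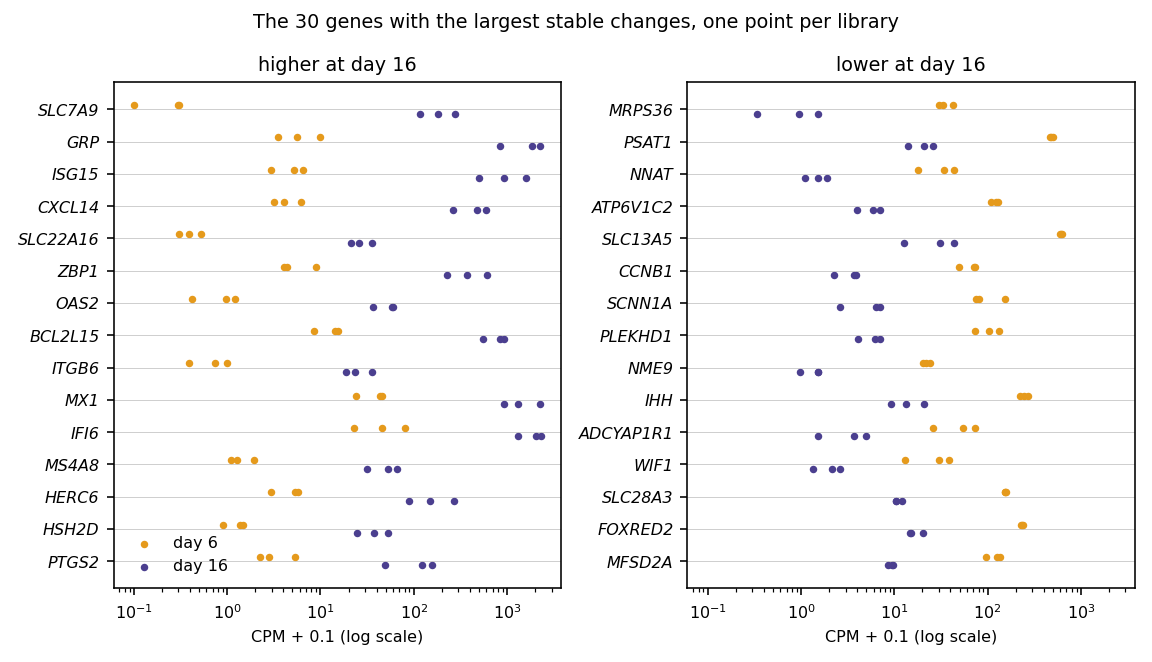
CPM plus 0.1, on a log scale, of the 15 leading genes in each direction, with 1 point per library and the days in 2 colours. Genes were chosen so that the days do not overlap for any of the 30. The day 6 points of SLC28A3, PSAT1, SLC13A5 and FOXRED2 almost coincide.

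Gene lists for a ruminant uterus were counted against the shares of all mRNA genes, 11.1% higher and 9.73% lower. List members with too few counts were not tested and stand in no count, and counts of 1 or 2 genes in a direction often changed when 1 library was left out. Of 70 listed interferon genes 58 had a row and 56 were tested. The interferon response list had 47 of these 56 members higher and 1 lower, with a median log2 fold change of 2.89 against 0.01 over all genes; with all 9 libraries 40 were higher. By role, all 25 tested antiviral effectors rose, with a median of 4.05, as did all 5 tested genes of ISG15 conjugation, with a median of 4.31. These were UBA7, which activates ISG15, UBE2L6, which carries it, the ligases HERC5 and HERC6, and ISG15 itself. UBA7 was at 34.1, 17.9 and 17.1 CPM at day 6 and at 421, 713 and 236 at day 16 (19.8-fold, adjusted p = 0.00185). Of 11 sensors of foreign nucleic acid 9 rose. DDX58, the RNA helicase RIG-I, was at 17.7, 11.4 and 15.1 CPM and then at 367, 632 and 237 (27.9-fold, adjusted p = 0.000601). MAVS, the adaptor through which it signals, was at 82, 80.4 and 89.9 CPM and then at 80.6, 83.8 and 79.4, with overlapping values (adjusted p = 0.761). UBA7, UBE2L6, HERC5, DDX58, MAVS and the signalling genes of the next paragraph, apart from IFNAR1, JAK1 and TYK2, were chosen after their values were seen.

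Receptors and signalling genes of the interferon response were mixed, with 8 of 15 higher, 1 lower and a median of 1.09. The receptor chain IFNAR1 was the member that fell, from 109.6, 97.1 and 93.8 CPM to 65.2, 57.8 and 65.9 (1.59-fold lower, SE 0.11 on the log2 scale, adjusted p = 0.00509). IFNAR2, its partner chain, was at 27.8, 23.6 and 27.2 CPM and then at 40.1, 33.1 and 34.5 (1.37-fold higher, adjusted p = 0.0487); this call was lost without each library in turn, and the p with all 9 libraries was 0.169. The 2 receptor chains thus differed in opposite directions, firmly so only for IFNAR1. The kinases that the receptor uses did not pass: JAK1 was at 409 ± 31.6 and 399 ± 28.5 CPM (adjusted p = 0.873) and TYK2 at 149.6 ± 30.7 and 204 ± 15.6 CPM (adjusted p = 0.0946). Transcription factors of the response were among the genes that rose. STAT2 went from 155 ± 9.7 to 423 ± 143 CPM (2.72-fold, adjusted p = 0.00504) and IRF9 from 59.6 ± 9.54 to 325 ± 119 CPM (5.45-fold, adjusted p = 0.00154). IRF7, which amplifies the response, went from 1.75, 1.71 and 3.12 CPM to 44.9, 71.6 and 31.1 (22.3-fold, adjusted p = 0.000569). USP18, which removes ISG15 and dampens the receptor, went from 12.9 ± 1.48 to 136 ± 55.5 CPM (10.5-fold, adjusted p = 0.000836).

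Antigen presentation on class I molecules showed 12 of 17 tested members higher and none lower, with a median of 0.96. These 12 were 8 without day 6 replicate 2, 9 without day 6 replicate 3 and 8 with all 9 libraries. NLRC5, the transactivator of class I genes, was at 32.3, 17.7 and 13.4 CPM at day 6 and at 126, 145 and 64.3 at day 16 (5.27-fold, adjusted p = 0.00894). Within the list, 5 of 6 immunoproteasome subunits were called, a count of 2 without day 6 replicate 2, 3 without day 6 replicate 3 and 3 with all 9 libraries. PSMB9, one of them, was at 45.7, 17.1 and 23.7 CPM and then at 139, 135 and 80.7 (4.1-fold, adjusted p = 0.0129). The peptide loading chaperones CALR (679.9 ± 15.3 and 676 ± 145 CPM) and PDIA3 (532 ± 44.2 and 566 ± 132 CPM) did not pass, with overlapping values.

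Innate immune lists were also tilted to day 16. Of 20 tested complement genes 8 were higher and none lower (median 0.87): 6 of 12 components and 2 of 8 regulators and receptors. The count of 8 was 4 without day 6 replicate 3, 4 without day 16 replicate 2 and 5 without day 16 replicate 1. C5, whose cleavage starts the membrane attack complex, was at 3.02, 1.28 and 3.22 CPM and then at 19.6, 17.8 and 10.8 (6.34-fold, adjusted p = 0.00266), and CFB, a factor of the alternative pathway, at 5.35, 4.48 and 3.42 CPM and then at 40.1, 67.9 and 23.3 (9.85-fold, adjusted p = 0.0026). The inhibitor CD59 (195.5, 171 and 190.6 CPM, then 205, 171.5 and 208.7) did not pass (adjusted p = 0.728). Of 21 chemokines and receptors 8 were higher and none lower: 7 of 12 ligands but only 1 of 9 receptors. These 8 were 4 without day 6 replicate 3, 5 without day 6 replicate 2 and 5 without day 16 replicate 1. With all 9 libraries 4 were higher, and none of them was a receptor. CCL2, which attracts monocytes, was at 3.11, 1.81 and 2.82 CPM and then at 26, 24 and 24.7, close to each other on each day (9.56-fold, adjusted p = 0.000131). CCL21, a chemokine of lymphatic vessels, was at 61.9 ± 20.4 and 131 ± 43.9 CPM (adjusted p = 0.0593).

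Of 23 interleukin 1 and NF-kB genes 9 were higher and none lower (median 0.76). IL1RN, the natural antagonist of interleukin 1, was at 3.7, 1.6 and 1.71 CPM and then at 9.71, 14.9 and 11.9 (5.16-fold, adjusted p = 0.00357). NFKBIZ, an atypical inhibitor of NF-kB, was at 20.4, 19.7 and 15.6 CPM and then at 77.4, 105 and 76.7 (4.65-fold, adjusted p = 0.000214). The NF-kB subunit NFKB1 stood at 120.1 ± 8.47 and 123 ± 18.5 CPM (adjusted p = 0.911). IL1R1, the signalling receptor, was at 267, 62.3 and 97.7 CPM at day 6 and 165, 146 and 179 at day 16 (adjusted p = 0.819). Day 6 replicate 1 was the high library, and without it day 16 was higher (log2 1.03, adjusted p = 0.0156).

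Interleukin 6 family genes, which signal through STAT3, had 8 of 13 members higher and none lower (median 1.02; 5 higher with all 9 libraries). LIFR, the receptor of leukaemia inhibitory factor, was at 57.1, 43.3 and 47 CPM and then at 286, 267 and 235 (5.35-fold, SE 0.15 on the log2 scale, adjusted p = 8.06e-05). OSMR, the oncostatin M receptor, was at 38.8, 25.3 and 26.3 CPM and then at 126, 139 and 86 (3.87-fold, adjusted p = 0.00162; p with all 9 libraries 0.0662). CLCF1, a ligand of this family, was at 8.36 ± 2.23 and 27.2 ± 2.78 CPM (3.25-fold, adjusted p = 0.00144). The receptor gene IL11RA (45.9 ± 4.47 and 38.2 ± 6.48 CPM, adjusted p = 0.267) and the kinase gene JAK2 (21.8 ± 1.21 and 30.4 ± 4.61 CPM, adjusted p = 0.054) did not pass.

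Most tested markers of T and NK cells, macrophages and B cells were not called. T and NK lymphocyte markers summed to 183 to 214 CPM at day 6 and 241 to 347 at day 16, with 14 of 16 listed genes in the table and 3 of these 14 called higher, a count of 1 without day 6 replicates 2 or 3, without day 16 replicate 1 and with all 9 libraries. CD7 was at 15.9, 10.5 and 12.1 CPM and then at 64.5, 68.2 and 56.3 (4.91-fold, adjusted p = 0.000203), and CD3E, a chain of the T cell receptor complex chosen after its values were seen, at 26.9 ± 3.12 and 29.6 ± 12.8 CPM (adjusted p = 0.77). Macrophage markers, 13 of 15 in the table, overlapped at 356 to 808 and 611 to 911 CPM with 2 of 12 tested called higher (1 without day 6 replicates 2 or 3, without day 16 replicates 1 or 2 and with all 9 libraries), among them CD14 (20.5 ± 6.45 to 54.6 ± 11.4 CPM, adjusted p = 0.00707). B and plasma cell markers summed to 24.3 to 51.4 CPM at day 6 and to 355, 87.4 and 63.1 in the day 16 libraries, the first of which held 220.4 CPM of JCHAIN, the joining chain of antibodies; 1 of 6 tested was called, and none without day 6 replicates 2 or 3. Granulocyte and mast cell markers summed to 14.3 to 20.1 and 23.4 to 48.0 CPM, with 3 of 5 tested called higher, none without day 6 replicate 3 and 1 without day 16 replicate 2. None of these 4 marker sets had a row at 0 counts in all 6 libraries, and their part in the differences of the immune lists was not tested.

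**Figure D4:**
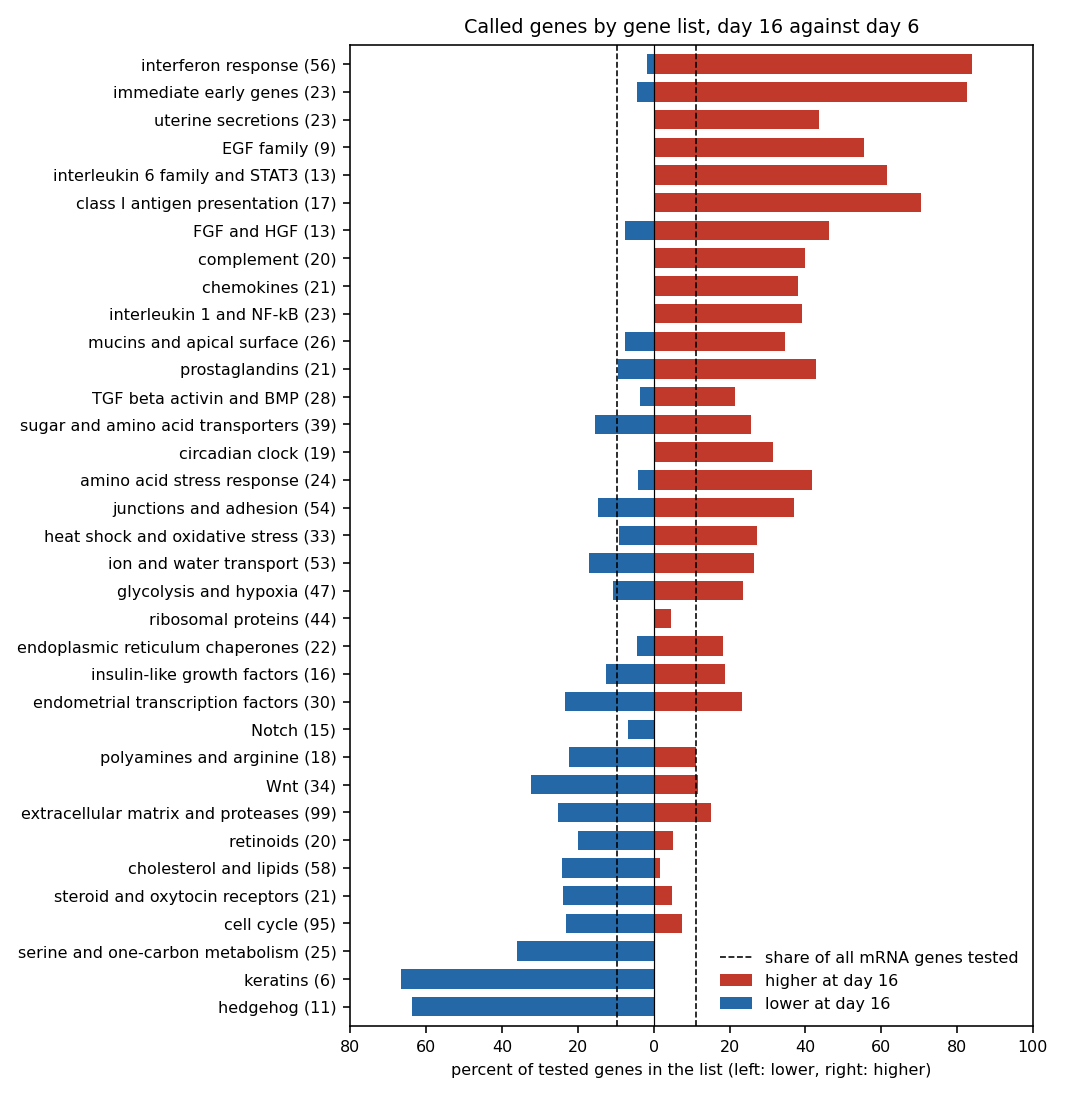
Percent of the tested genes of each list called higher (red, to the right) or lower (blue, to the left) at day 16, with the number tested in brackets and lists ordered by median log2 fold change; dashed lines mark 11.1% and 9.73% of all mRNA genes tested. Interferon response and immediate early genes lie farthest to the right, and keratins and hedgehog genes farthest to the left.

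Secretions and their makers came next. Of 23 tested uterine secretory genes 10 were higher and none lower (median 1.23). LGALS9, a galectin, was at 32.7, 16.5 and 19.5 CPM and then at 167, 199 and 120 (7.06-fold, adjusted p = 0.0014). IGFBP3, a carrier of insulin-like growth factors, was at 133, 88 and 139 CPM and then at 449, 355 and 361 (3.23-fold, adjusted p = 0.00112). SERPINA14, the uterine serpin, was at 45.4, 206 and 62.5 CPM at day 6 and at 469, 659 and 284 at day 16. It did not pass (adjusted p = 0.0548); the high day 6 library was replicate 2, and without it the gene was called, with a fold of 8.71 in place of 4.49 (adjusted p = 0.00687). The protease gene CTSB overlapped, at 475 ± 117 and 542 ± 85.2 CPM (adjusted p = 0.567).

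Prostaglandin genes had 9 of 21 members higher and 2 lower; 5 were higher without day 6 replicate 2, without day 6 replicate 3, without day 16 replicate 1 and with all 9 libraries. PTGS2, which makes the precursor of all prostaglandins, was at 5.25, 2.13 and 2.72 CPM and then at 157, 49.5 and 124 (32.3-fold, adjusted p = 0.00154). PLA2G10, a secreted phospholipase that releases fatty acids for it, was at 17.2, 12.5 and 6.94 CPM and then at 404, 185 and 496 (29.5-fold, adjusted p = 0.00116). Replicate 2 was the lowest day 16 library for both, and far above day 6. SLCO2A1, the prostaglandin transporter, was at 31.4 ± 9.69 and 117 ± 26.3 CPM (3.71-fold, adjusted p = 0.00295). AKR1B1, an aldose reductase that can make prostaglandin F2 alpha, was at 288, 315 and 446 CPM and then at 75.9, 61.3 and 83.7 (4.75-fold lower, adjusted p = 0.000393). PPARD, a nuclear receptor for fatty acid derivatives, was also lower (adjusted p = 0.0403), in a call lost in 5 of the 6 fits without 1 library, with a p up to 0.104, and with all 9 libraries (0.0609). PTGR1 (114 ± 17.2 and 88.3 ± 20.1 CPM) and PTGDS (95.9 ± 47.4 and 75.6 ± 5.13 CPM) overlapped.

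Among steroid and oxytocin receptors and steroid enzymes, 5 of 21 tested genes were lower, 2 with all 9 libraries, and 1 higher. The oestrogen receptor ESR1 was at 844, 762 and 738 CPM at day 6 and at 297, 421 and 281 at day 16 (2.35-fold lower, adjusted p = 0.00271). FKBP4, a chaperone partner of steroid receptors, was at 522, 563 and 564 CPM and then at 272, 265 and 319 (1.92-fold lower, adjusted p = 0.00176). HSD17B8, a dehydrogenase of sex steroids, was at 24.9 ± 4.23 and 14.1 ± 1.1 CPM (adjusted p = 0.0124; p with all 9 libraries 0.356). HSD11B1, which reactivates glucocorticoids, was the gene that rose, from 1.26, 0 and 0.906 CPM to 108, 92.5 and 29.4 (102-fold, adjusted p = 0.00222), with a fold of 159.9 without day 6 replicate 1. The progesterone receptor PGR, chosen after its values were seen, was at 32.4, 39.4 and 34.7 CPM and then at 15.9, 38.7 and 27, with overlapping values (adjusted p = 0.409). HSD11B2, the enzyme that inactivates glucocorticoids, overlapped as well (248, 135 and 161 CPM, then 147, 136.5 and 151; adjusted p = 0.337).

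Transcription factors of the endometrium went both ways, with 7 of 30 higher and 7 lower (2 lower with all 9 libraries). KLF4, a zinc finger factor of differentiating epithelia, was at 20.3 ± 6.53 and 62.5 ± 15.4 CPM (3.07-fold, adjusted p = 0.0074), and ARID5B, a DNA-binding cofactor, at 76 ± 5.68 and 248 ± 45 CPM (3.27-fold, adjusted p = 0.000363). MSX1, a homeobox factor known for its loss from the uterus at implantation in mice, was at 171, 187 and 186 CPM and then at 38.6, 44 and 64.3 (3.7-fold lower, adjusted p = 0.000611). GRHL1 was at 67 ± 7.85 and 35.1 ± 3.53 CPM (adjusted p = 0.00258), and SOX17, a factor of glands and vessels, at 87.6 ± 10.8 and 50.8 ± 8.59 CPM (adjusted p = 0.00945; p with all 9 libraries 0.188). HOXA11 (212 ± 17.9 and 204 ± 44.8 CPM, adjusted p = 0.843) did not pass.

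Hedgehog signalling, in which Indian hedgehog from the epithelium acts on stromal cells under progesterone, had 7 of 11 tested genes lower and none higher. The median was -1.69, and 7 were lower in every fit without 1 library. The ligand IHH was at 246, 274 and 222 CPM at day 6 and at 9.16, 20.6 and 13.1 at day 16 (17.3-fold lower, adjusted p = 0.000211). The other members given here were chosen after their values were seen. Other genes of the pathway were lower too: GLI1, its transcription factor and target, was at 106, 84.5 and 93.1 CPM and then at 11.4, 17 and 17.1 (6.23-fold lower, adjusted p = 0.000144). HHIP, which traps the ligand, was at 14.6 ± 4.03 and 4.48 ± 0.708 CPM (adjusted p = 0.00394), and the coreceptor CDON at 215 ± 34.2 and 50.1 ± 10.8 CPM (adjusted p = 0.000394). The signal transducer SMO was at 124 ± 6.74 and 106 ± 11.4 CPM (adjusted p = 0.222) and NR2F2, a stromal nuclear receptor known as a mediator of the pathway in the uterus, at 154 ± 9.88 and 175 ± 11.7 CPM (adjusted p = 0.275).

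Of 34 Wnt genes 11 were lower and 4 higher; with all 9 libraries 7 fell, and the higher count was 1 without day 6 replicate 3 and 2 without day 16 replicate 2. The falls included secreted inhibitors. WIF1 was at 30.1, 13 and 38.8 CPM and then at 2.54, 2.03 and 1.23 (14.2-fold lower, adjusted p = 0.00222), and SFRP5 at 5.94, 6.93 and 10.3 CPM and then at 1.43, 0.596 and 0.851 (7.92-fold lower, adjusted p = 0.00206). WNT4, a ligand known for its part in stromal differentiation, was at 10.9, 5.97 and 7.65 CPM and then at 90.8, 35.6 and 39.4 (6.74-fold, adjusted p = 0.00591), with day 16 replicate 1 the highest. AXIN2, a feedback target of the pathway chosen after its values were seen, was at 12.6, 10.5 and 17.2 CPM and then at 5.74, 3.69 and 5.29 (2.72-fold lower, adjusted p = 0.00824; p with all 9 libraries 0.149).

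Other growth factor groups were tilted upward or mixed. In the EGF family 5 of 9 genes were higher and none lower, in the FGF and HGF group 6 of 13 were higher and 1 lower, and in the TGF beta, activin and BMP group 6 of 28 were higher and 1 lower; the last 6 were 3 without day 6 replicate 3. MET, the receptor of hepatocyte growth factor, was at 36.8, 45.3 and 39.5 CPM and then at 229, 278 and 181 (5.67-fold, adjusted p = 0.000152). INHBA, the subunit of activin A, was at 6.23, 10.2 and 12.6 CPM and then at 68.9, 67.7 and 33.9 (5.86-fold, adjusted p = 0.00363). FGF10, a stromal ligand, and ERBB2 and ERBB3, a receptor pair of the EGF family, were chosen after their values were seen. FGF10 was at 7.98, 5.01 and 8.96 CPM and then at 32.7, 38.8 and 31.4 (4.67-fold, adjusted p = 0.000595). ERBB2 was at 150.0 ± 16.5 and 304 ± 40.9 CPM (adjusted p = 0.00235), and ERBB3 at 167 ± 2.76 and 390.4 ± 119 CPM (adjusted p = 0.00526). In the Notch group 1 of 15 genes was lower and none higher, NOTCH2 was at 465 ± 42.8 and 514 ± 50.8 CPM (adjusted p = 0.495), and in the insulin-like growth factor group 3 of 16 were higher and 2 lower, none lower with all 9 libraries.

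Surface and junction genes of epithelium rose more often than they fell. Of 26 mucins and glycosylation enzymes 9 were higher and 2 lower. MUC1, a mucin of the luminal surface, was at 3.11, 1.49 and 1.51 CPM and then at 31.2, 15.7 and 19.6 (10.8-fold, adjusted p = 0.00108). FUT4, a fucosyltransferase that makes Lewis-type sugars, was at 6.32, 6.61 and 7.25 CPM and then at 49.1, 51.2 and 26.1 (6.24-fold, adjusted p = 0.000732), and B3GNT3, which extends sugar chains, at 7.4, 3.2 and 4.93 CPM and then at 27.9, 47.4 and 28.3 (6.62-fold, adjusted p = 0.00197). The genes that fell were the fucosyltransferase FUT1 (130.5 ± 13.3 to 50.3 ± 21.9 CPM, adjusted p = 0.0283) and the galactosyltransferase B4GALT1 (77.3 ± 6.28 to 58.1 ± 3.17 CPM, adjusted p = 0.0305). Both calls were lost with all 9 libraries (0.153 and 0.73) and in at least 4 of 6 fits without 1 library.

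Tight junction genes were higher in 9 of 18 cases and lower in 2; with all 9 libraries the counts were 2 and 1. CLDN4, a sealing claudin, was at 67.1, 45.2 and 52.4 CPM and then at 407, 277 and 252 (5.68-fold, adjusted p = 0.000476), while CLDN10, a pore-forming claudin, was at 26.9, 31.8 and 31.5 CPM and then at 10.2, 12.6 and 13.5 (2.48-fold lower, adjusted p = 0.00142). Desmosome genes also split: PKP2, a plaque protein, was at 6.71, 8.21 and 6.04 CPM and then at 37.2, 19.8 and 37.4 (4.51-fold, adjusted p = 0.00166), and DSG2, a desmosomal cadherin, at 185 ± 29.6 and 84.8 ± 10.4 CPM (2.18-fold lower, adjusted p = 0.00222). Integrins split as well, with 6 of 19 integrins and ligands higher and 3 lower; 6 were lower without day 6 replicate 1. ITGB6, the chain that activates latent TGF beta, was at 0.292, 0.64 and 0.906 CPM and then at 23.1, 35.9 and 18.7 (41.5-fold, adjusted p = 0.000203). ITGA2, a chain of a collagen receptor, was at 72.5, 90.6 and 88.7 CPM and then at 13.7, 15.5 and 16.1 (5.56-fold lower, adjusted p = 7.57e-05). FN1 (798 ± 67.9 and 768 ± 172 CPM) and ITGB1 (773 ± 159 and 752 ± 77.6 CPM) did not pass.

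Keratins, the intermediate filaments of epithelium, went the other way from the surface genes: 4 of 6 were lower, 2 with all 9 libraries, and the median was -1.12. KRT7 was at 177, 119 and 108 CPM and then at 31.3, 36.2 and 45.6 (3.56-fold lower, adjusted p = 0.00159). KRT18 was at 60.1, 57.4 and 57.9 CPM and then at 35.3, 41.1 and 35.2 (1.57-fold lower, adjusted p = 0.00555; p with all 9 libraries 0.398), and its partner KRT8 at 278, 208 and 212 CPM and then at 135, 228 and 213 (adjusted p = 0.422). The day 6 values of KRT5, a basal keratin, were spread over 157, 78.8 and 23.5 CPM, against 0.662 to 1.79 at day 16 (79.4-fold lower, 46.9-fold without day 6 replicate 1). Of the epithelial marker list, which includes KRT7, KRT18 and CLDN4, 7 of 17 were higher and 4 lower; with all 9 libraries the counts were 4 and 1, and 2 were lower without day 16 replicate 3. Its summed level was 1421 to 1931 CPM at day 6 and 1961 to 2111 at day 16. Ciliated cell markers, all 20 in the table, overlapped at 150 to 345 and 118 to 189 CPM, with none of 16 tested called.

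Matrix genes included abundant transcripts that fell. Of 24 collagens 9 were lower and none higher (median -0.54); 5 were lower without day 16 replicate 1 and 2 with all 9 libraries. COL1A2, a chain of the main fibre collagen, was at 9353, 8765 and 8820 CPM at day 6 and at 5020, 5534 and 4717 at day 16 (1.76-fold lower, adjusted p = 0.00444; p with all 9 libraries 0.107). COL3A1 was at 10772, 9486 and 10739 CPM and then at 5914, 7148 and 4577 (1.76-fold lower, adjusted p = 0.0178; p with all 9 libraries 0.135), and this call was kept in 4 of 6 fits without 1 library. Both genes are also stromal fibroblast markers, so they enter the marker sum given above as well. Of the 15 stromal markers tested 3 were lower and none higher, and none was lower with all 9 libraries. DCN, the stromal proteoglycan decorin, was at 3317, 2878 and 3935 CPM and then at 3500, 2909 and 3656 (adjusted p = 0.976). COL11A1 was at 60.3 ± 20.9 and 13.7 ± 5.49 CPM (4.38-fold lower, adjusted p = 0.00952; p with all 9 libraries 0.062). COL7A1, the anchoring collagen of basement membranes, was at 21.7, 11.5 and 11.9 CPM and then at 1.66, 2.26 and 2.74 (6.71-fold lower, adjusted p = 0.0015), in a row whose locus may share its reads with neighbouring rows. COL6A3 was at 1705, 3826 and 2382 CPM and then at 1632, 1775 and 1199 (adjusted p = 0.116), with day 6 replicate 1 inside the range of day 16.

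Proteases and matrix modifiers were mixed. Of 22 metalloproteases and inhibitors 9 were lower and 5 higher; the higher count was 2 without day 6 replicate 3 and 3 without day 6 replicate 2, without day 16 replicate 2 and with all 9 libraries, where 5 were lower. MMP28, a secreted metalloprotease, was at 72.7, 50.2 and 41.1 CPM and then at 12.9, 6.55 and 8.32 (5.89-fold lower, adjusted p = 0.00166). LOXL4, which cross-links collagen, was at 11.2, 13.3 and 14.7 CPM and then at 65.1, 61.7 and 35.2 (4.12-fold, adjusted p = 0.00158). Among 19 serine proteases and serpins 5 were higher and 1 lower. PRSS8, an activator of the epithelial sodium channel, was at 20.6, 12.6 and 20.2 CPM and then at 168, 142 and 79.6 (7.28-fold, adjusted p = 0.00169), while SCNN1A, the channel's alpha chain, was at 153, 79.9 and 74.3 CPM and then at 2.54, 6.32 and 6.9 (19.4-fold lower, adjusted p = 0.00128).

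Transporters went both ways, and substrates were not compared by a test. Over all 249 tested solute carrier genes 34 were higher and 36 lower, with a median of -0.03. Among all mRNA genes tested the shares were 11.1% and 9.73%. Sugar transporters were higher in 4 of 9 cases. SLC5A1, the sodium-glucose cotransporter, held 2 counts over the day 6 libraries and was at 92.5, 36.1 and 55.3 CPM at day 16, a ratio of 911 (95% interval 252 to 7528, counting error only). SLC5A11, a sodium-coupled inositol and glucose carrier, was at 0.195, 0.32 and 0.403 CPM and then at 20.8, 8.22 and 12.2 (43.3-fold, adjusted p = 0.000409). SLC2A10, a facilitative carrier, was lower (31, 39.7 and 34.6 CPM to 7.06, 20.1 and 8.79, adjusted p = 0.0279), in a call kept in 1 of 6 fits without 1 library, with a p up to 0.0839; without day 16 replicate 2 the fold was 4.42 in place of 2.94. Of 30 amino acid and peptide transporters 6 were higher and 5 lower, and the lower count was 1 to 3 without any 1 library and 0 with all 9. SLC38A1, a glutamine carrier, was at 73.3, 97.6 and 88.6 CPM and then at 23.4, 27.3 and 21.6 (3.59-fold lower, adjusted p = 0.000242; p with all 9 libraries 0.0523), and SLC7A8 at 10.2 ± 1.87 and 2.36 ± 1.9 CPM (adjusted p = 0.0235, and 0.0557 with all 9 libraries; a 7.95-fold fall without day 16 replicate 3, 4.2-fold with it), in a call kept in 2 of 6 fits without 1 library, with a p up to 0.0712. The peptide transporter SLC15A1 was at 0.292, 84.4 and 0.302 CPM at day 6 and at 99.6, 128 and 76 at day 16. The test did not call it (adjusted p = 0.514), and day 6 replicate 2 lay within the range of day 16; without that library the gene was called with a fold of 326 (adjusted p = 0.000226).

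Ion and metal transporters were counted with water and urea channels: 14 of 53 were higher and 9 lower, with 8 higher without day 6 replicate 1, 7 without day 6 replicate 2, 9 without day 16 replicate 1 and 8 with all 9 libraries. TRPV6, an epithelial calcium channel, was at 0.584, 0.853 and 1.01 CPM and then at 15.6, 11.7 and 11.2 (15.5-fold, adjusted p = 0.000203). SLC11A2, which imports iron, was at 107, 79 and 86.8 CPM and then at 529, 426 and 318 (4.67-fold, adjusted p = 0.000476), while HEPH, a copper oxidase of iron export, was at 31 ± 4.73 and 10.6 ± 2.04 CPM (2.93-fold lower, adjusted p = 0.00142). KCNK5, a potassium channel, was at 4.57, 4.05 and 5.74 CPM and then at 20.9, 27.8 and 25.4 (5.14-fold, adjusted p = 0.000311). CA2, a carbonic anhydrase, was at 678, 654 and 847 CPM and then at 194, 178 and 209.8 (3.74-fold lower, adjusted p = 0.000203). The iron store chains FTH1 (1103 ± 409 and 1134 ± 101 CPM) and FTL (418 ± 43 and 483 ± 94.2 CPM) did not pass.

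Several metabolic lists held more lower than higher genes. Serine and one-carbon metabolism, which supplies carbon units for nucleotides and methylation, had 9 of 25 genes lower and none higher (median -0.42). Besides PSAT1, the first enzyme of serine synthesis, PHGDH, was at 73.8, 85.7 and 57.8 CPM and then at 6.51, 5.96 and 5.96 (11.8-fold lower, adjusted p = 6.44e-05). MTHFD2, a folate enzyme of mitochondria, was at 267, 266 and 267 CPM and then at 49.9, 59.1 and 47.4 (5.12-fold lower, adjusted p = 6.44e-05). The methyl donor synthetase MAT2A was at 238 ± 11.9 and 218 ± 12.7 CPM (adjusted p = 0.443). Several of these genes are known targets of ATF4, the transcription factor of amino acid shortage, whose own list of targets and tRNA synthetases had 10 of 24 higher and 1 lower; 6 were higher without day 6 replicate 2 and without day 16 replicate 1, and 4 with all 9 libraries. WARS, the tryptophan tRNA synthetase, which interferons also induce, was at 151, 142 and 128 CPM and then at 716, 643 and 334 (4.02-fold, adjusted p = 0.00282), and DDIT3, a stress factor, at 19.6 ± 3.27 and 41.2 ± 3.53 CPM (adjusted p = 0.0028). ALDH18A1, an enzyme of proline synthesis, fell from 287, 240.1 and 264 CPM to 81.2, 67.9 and 67.2 (3.66-fold, adjusted p = 0.000139). The synthetases AARS (211 ± 1.7 and 185 ± 14 CPM) and EPRS (145 ± 9.9 and 135 ± 11.4 CPM) did not pass.

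In cholesterol synthesis and uptake 6 of 21 genes were lower and none higher (median -0.46). TM7SF2, a sterol reductase, was at 201, 192 and 164 CPM and then at 56.6, 56.4 and 61.4 (3.19-fold lower, adjusted p = 0.000147), and SREBF2, the transcription factor of the pathway, at 226 ± 48.9 and 203 ± 20.1 CPM (adjusted p = 0.573). Of 37 fatty acid and lipid droplet genes 8 were lower and 1 higher; 5 were lower without day 16 replicate 3 and 3 with all 9 libraries. ELOVL5, an elongase of polyunsaturated fatty acids, was at 154, 119 and 114 CPM and then at 44.6, 41.9 and 35.4 (3.17-fold lower, adjusted p = 0.000409). ACADM, which breaks down medium chains, was the gene that rose, from 12.5 ± 1.42 to 27.7 ± 3.45 CPM (adjusted p = 0.00237). FASN was at 551, 415 and 362 CPM and then at 168, 308 and 128, without overlap but with an adjusted p of 0.0562. ODC1, the first enzyme of polyamine synthesis, was at 247, 156 and 185 CPM and then at 44.2, 39.8 and 28.5 (5.25-fold lower, adjusted p = 0.000535), and LOC102182731, a row described as like it, was also lower (4.64-fold, adjusted p = 0.00326). The spermine synthase SMS was at 354, 378 and 381 CPM and then at 132, 86.6 and 147 (3.04-fold lower, adjusted p = 0.00138). Of the 18 genes of polyamines and arginine 4 were lower and 2 higher, none higher with all 9 libraries.

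Retinoid genes had 4 of 20 lower, 2 with all 9 libraries, and 1 higher. ALDH1A1, which makes retinoic acid, was at 520.2, 432 and 554 CPM and then at 254, 276 and 253 (1.92-fold lower, adjusted p = 0.00234). Of 47 genes of glycolysis, hypoxia and vessel growth 11 were higher and 5 lower, with 3 lower without day 6 replicate 3. The higher count was 3 without day 6 replicate 3 and without day 16 replicate 1, 5 without day 6 replicate 2, 6 without day 16 replicate 2 and 6 with all 9 libraries. EPAS1, an oxygen-regulated transcription factor, was at 268, 206 and 234 CPM and then at 1564, 1138 and 965 (5.18-fold, adjusted p = 0.000343), while HK2, a hexokinase, was at 29.2, 16 and 22.9 CPM and then between 4.63 and 10 (3.11-fold lower, adjusted p = 0.0113). APLN, a peptide of growing vessels, was at 31.7, 27.9 and 18.8 CPM and then at 4.3, 4.53 and 5.2 (5.57-fold lower, adjusted p = 0.000464). GAPDH was at 874 ± 95 and 925 ± 216 CPM (adjusted p = 0.803).

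Cell division genes were lower most often in the mitosis list. Of 38 mitotic genes 16 were lower and none higher, with a median of -1.35, and 10 were lower without day 6 replicate 3. Replication and S phase genes had 5 of 37 lower and 2 higher (median -0.12); 3 were lower without day 6 replicate 3, without day 16 replicates 2 or 3 and with all 9 libraries. BIRC5, a subunit of the chromosome passenger complex, was at 11.4, 2.67 and 11.9 CPM and then at 0.773, 0.477 and 0.284 (16.8-fold lower, adjusted p = 0.00617), and KIF20A, a motor of cell separation, at 8.37, 2.03 and 9.36 CPM and then at 0.331, 0.953 and 0.662 (10.1-fold lower, adjusted p = 0.0119). For both, day 6 replicate 2 was the lowest of its day and above every day 16 value. MKI67, the common proliferation marker, chosen after its values were seen, showed the same order at 21.8, 9.92 and 25.3 CPM and then 5.52, 3.22 and 2.08 (5.29-fold lower, adjusted p = 0.0108; p with all 9 libraries 0.0503). Of 20 genes of G1 and its inhibitors 5 were higher and 1 lower; 3 were higher with all 9 libraries, without day 6 replicates 1 or 3, and without day 16 replicate 2. GADD45B, a stress-induced growth inhibitor, was at 5.25, 4.69 and 6.74 CPM and then at 24.3, 30 and 15.6 (4.17-fold, adjusted p = 0.00203), and CCND3, a G1 cyclin, at 94.7 ± 9.44 and 232 ± 51.9 CPM (adjusted p = 0.002). The helicase subunit MCM7 (138 ± 6.58 and 150.4 ± 30.7 CPM) overlapped.

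Immediate early genes, which respond within minutes to growth factors, stress and tissue handling, were higher in 19 of 23 cases and lower in 1, with a median of 1.86; 15 to 19 were higher without any 1 library. ATF3, a stress-induced factor, was at 2.24, 2.56 and 2.92 CPM and then at 59.9, 53.7 and 132 (31.7-fold, adjusted p = 0.000628), and CTGF, a matrix-bound growth factor, at 28.6, 40.5 and 45 CPM and then at 210.4, 225 and 141 (5.05-fold, adjusted p = 0.000732). FOS, chosen after its values were seen, was uneven within each day, at 16.1, 4.8 and 29.3 CPM and then at 166, 309 and 105; its adjusted p was 0.0159 and up to 0.105 without 1 library, and without day 6 replicate 3 the fold was 18.4 in place of 11.5. The member that fell was NR4A2, an orphan nuclear receptor, from 20.4 ± 0.742 to 7.81 ± 0.87 CPM (adjusted p = 0.00108). The labels give tissue collection in the same words for both days; times between collection and freezing are not in the sources used here, and their part was not tested.

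**Figure D5:**
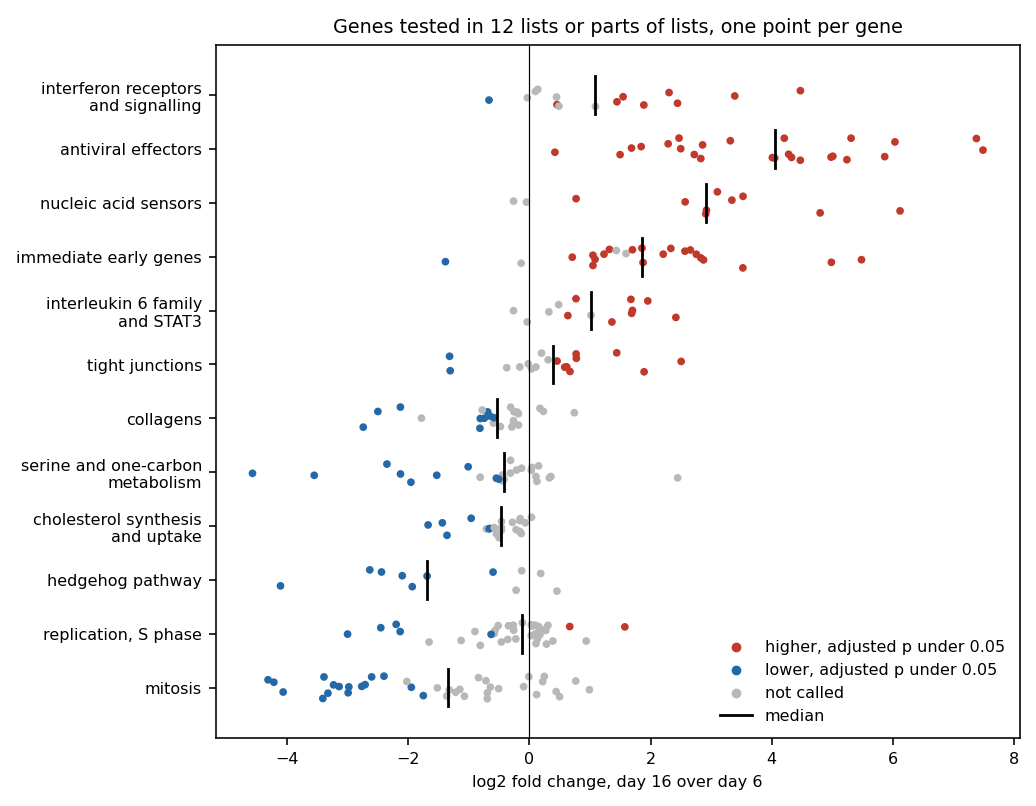
Log2 fold change of day 16 over day 6 for each tested gene of 12 lists or parts of lists, with 1 point per gene (random vertical offsets), red and blue for genes called higher and lower, grey for the rest, and a black bar at the median. Antiviral effectors are all to the right with a median of 4.05, and mitotic and hedgehog genes have medians of -1.35 and -1.69 with several uncalled genes near 0.

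Heat shock proteins had 4 of 12 higher and 1 lower, but 1 or 2 higher in 5 of the 6 fits without 1 library and 1 with all 9 libraries. Antioxidant genes had 5 of 21 higher and 2 lower. SOD3, the secreted superoxide dismutase, was at 5.74, 4.48 and 6.54 CPM and then at 51.9, 29.4 and 34.2 (6.87-fold, adjusted p = 0.000447), and TXNRD1, a thioredoxin reductase, at 344, 338 and 318 CPM and then at 75.2, 83.5 and 81.8 (4.16-fold lower, adjusted p = 6.44e-05). TXNIP, the inhibitor of thioredoxin, was at 929.7, 703 and 951 CPM and then at 2188, 2123 and 2285 (2.55-fold, adjusted p = 0.00102). Reticulum chaperone genes had 4 of 22 higher and 1 lower with a median of 0.00, and the higher count was 2 without day 6 replicate 2, without day 6 replicate 3 and with all 9 libraries. HERPUD1, of reticulum protein breakdown, was at 107 ± 9.65 and 208 ± 41 CPM (adjusted p = 0.00503), and HSP90B1 at 505 ± 29.6 and 653 ± 96.2 CPM (adjusted p = 0.106). Clock genes had 6 of 19 higher and none lower, but 2 without day 6 replicate 3, 3 without day 6 replicate 2 and 2 with all 9 libraries. CRY1, a clock repressor, was at 8.83 ± 1.3 and 31.7 ± 8.95 CPM (3.59-fold, adjusted p = 0.00171). Of 44 ribosomal protein genes 2 were higher, at most 1 without any 1 library and none with all 9, and the median was 0.12.

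Some genes were near silent on 1 day. Of called genes, 20 had 3 or fewer counts over the 3 libraries of the lower day and at least 5 CPM on the other; 15 of these were higher and 5 lower at day 16. For some of these genes, chosen after their values were seen, ratios of counts with 95% intervals or a bound are given. The intervals cover counting error only, and larger ratios occur among the genes not given. RHBG, an ammonium transporter, held 1 count at day 6 and was at 39.6, 20.3 and 18.2 CPM at day 16 (ratio 762, interval 136 to 30144). TGM5, a transglutaminase, held 1 count and was at 24.3, 15.5 and 11.7 CPM (ratio 500.4, interval 89.4 to 19804). LOC102183203 held 0 counts at day 6 and 683 at day 16, at least 240.3-fold higher against a floor of 3 counts over the day. In the other direction, CDK5R2, an activator of the kinase CDK5, was at 20.8, 17.3 and 13.9 CPM at day 6 and held 2 counts at day 16 (ratio 243, interval 67.1 to 2016). SLC26A3, an anion exchanger, was at 11.5, 2.56 and 3.62 CPM and held 1 count (ratio 169, interval 29.9 to 6697). TDGF1, a coreceptor of Nodal, was at 15.3, 5.87 and 3.02 CPM and held 2 counts (ratio 115, interval 31.4 to 952). For the last 2 genes the day 6 libraries themselves differed several-fold, with replicate 1 the highest.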

How the data were processed

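Uterine poly(A) RNA of 3 samples at day 6 and 3 at day 16 was analysed from a single table of counts. Per the labels' protocols, RNA was extracted with Trizol, purified on Dynabeads, cut with RNase III and made into Ion Torrent libraries, which the design text says were run on an Ion Proton. The deposited values are unnormalized counts of reads by gene, as whole numbers, made by the authors with an aligner, counter, build and strand setting not given in the sources used here. Reads of near-identical genes and of overlapping or antisense genes may therefore be split or mixed, and members of the OAS, IFIT and galectin families are uncertain one by one. Symbols came from the table, and for 464 locus rows from a RefSeq gene table of assembly ARS1.2.

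Tests used edgeR 4.0.16 (R 4.3.3) with TMM scaling of the libraries; low rows were removed with filterByExpr, and a robust quasi-likelihood model was fitted to the 6 libraries with the day as its only term. Benjamini-Hochberg adjustment ran over all 15644 rows tested, mRNA or not, and an adjusted p under 0.05 made a call; every adjusted p in the text comes from this test unless another fit is named. The common biological coefficient of variation was 0.217. Values are CPM as mean ± SD (n = 3) or in the order replicate 1, 2, 3, and fold changes are fitted ones. Each SE was worked back from the test, as the absolute log2 fold change over the square root of its F statistic. It is not a fitted standard error. Tested on simulated data of 15506 genes for this comparison, the procedure recovered 56% of 100 2-fold changes and 100% of 100 4-fold changes with 7 false calls. In that simulation all genes had the same spread, that of the common coefficient. Changes were placed only in genes above a count floor, and all other genes were left unchanged. Real genes differ in spread and some libraries stand apart, so these rates may not hold for the real data. With 3 against 3 an exact two-sided permutation test of a single gene cannot go below 0.1.

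Members and gene lists were chosen with earlier results of these data known. The rule for named genes took, per direction, the 15 called mRNA genes with the largest fold change among those with a gene symbol, not a locus identifier. They also had at least 20 CPM on the higher day, at least 4 counts on the lower day and no overlap. Their call was kept without each library, with a fold within 1.5 times. For each list the rule took up to 3 called members per direction with at least 5 CPM and no overlap, and up to 2 uncalled members with the most counts. Genes outside this rule are said to be chosen after their values were seen. Alternatives were DESeq2 1.42.0, its median-ratio scaling within edgeR (RLE), a fit to all 9 libraries, mRNA rows only, no filter, a filter of 1 CPM in 3 libraries, a replicate block, and leaving out each library. Day 19 was not compared. A few genes that the rule names are not reported here.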

Additional observations from a re-analysis of the deposited data

How the results depend on the processing

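The 6 libraries gave 2958 calls (1576 higher, 1382 lower). Leaving out 1 library gave 1691 to 2593, with 868 to 1473 higher and 823 to 1214 lower; fewer samples enter these fits. The fit to all 9 libraries called 1355, with 781 higher and 574 lower; the cause was not tested. DESeq2 called 3465, RLE scaling 2956 (1540 higher, 1416 lower), mRNA rows alone 3095, no filter 2890 and the stricter filter 2952. Replicate numbers are shared across days in the labels. Deviations of same-numbered libraries correlated at 0.086, 0.0093 and -0.0077, against -0.076 to 0.066 for libraries with different numbers. Centring on only 3 libraries a day constrains these values, so they cannot decide whether libraries are paired. A fit with the replicate block called 2664, with 1428 higher and 1236 lower. Of 231 genes followed under each alternative, none that was called changed direction; 29 lost their call with all 9 libraries, 4 lost and 5 gained one with the replicate block, and 13 gained one with DESeq2. Leaving out 1 library ended 7 to 20 calls. A promoter motif search that had been planned was not run, since no promoter sequences were at hand. Depth limits the near-silent genes: a total of 3 or fewer counts on a day allows wide intervals.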

Other observations

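The genes given here belong to no list above and were chosen after their values were seen, so their values are a description. Ligands of the inhibitory receptor PD-1 were higher at day 16. CD274, which encodes PD-L1, was at 2.24, 0.64 and 1.61 CPM at day 6 and at 23.8, 39.7 and 21.6 at day 16 (18.6-fold), and PDCD1LG2, which encodes PD-L2, at 8.17, 6.93 and 6.24 CPM and then at 52.7, 66.9 and 32.6 (7.1-fold). Of 3 further genes, picked by hand and no test of a group, the death ligand TNFSF10 was at 16.4 ± 1.72 and 199 ± 102 CPM, the inflammatory caspase CASP1 at 23.4 ± 5.23 and 142 ± 79.8 CPM, and MLKL, the effector of necroptosis, at 6.55 ± 1.58 and 47.8 ± 8.08 CPM. For CD274, PDCD1LG2, TNFSF10, CASP1 and MLKL the highest day 16 value was in replicate 2 and the lowest in replicate 3, and no value overlapped with day 6.

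Another set was highest in day 16 replicate 1. CHGA, a protein of secretory granules, was at 2.04, 4.69 and 5.03 CPM and then at 199, 121 and 49.4 (31.4-fold), AGR2, a disulfide isomerase of secretory epithelia, at 6.32, 4.8 and 4.43 CPM and then at 127, 67.6 and 38.2 (14.9-fold), and PROM2, a protein of membrane protrusions, at 14.2, 6.4 and 7.35 CPM and then at 269, 189 and 80.4 (19.2-fold).

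Among genes that fell, LAP3, an aminopeptidase, was at 919, 949 and 897 CPM and then at 122, 191 and 104 (6.63-fold lower). SPDEF, a transcription factor of secretory epithelia, was at 88.7, 102 and 83.2 CPM and then at 7.62, 10.7 and 12 (9-fold lower). The gap junction genes GJB1 (34.5, 20.8 and 24.7 CPM, then 1.55, 2.26 and 2.46) and GJB5 (38.7, 45.5 and 38.1 CPM, then 5.19, 6.32 and 3.4) were lower by 12.7 and 8.26 times. The days did not overlap for any gene named in these 3 paragraphs.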
